A study of Arabidopsis thaliana with 24 samples.

Results

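Unstressed seedlings of uap1-2 were compared with unstressed seedlings of the wild type (WT) by poly(A) RNA sequencing, over every gene with enough reads to test. The comparison used 8 of the 24 libraries of the series, 4 of uap1-2 and 4 of WT, chosen by their labelled genotype and treatment. Plants of both groups were Arabidopsis thaliana, accession Col-0, taken as whole seedlings from MS medium with no treatment. The uap1-2 plants were homozygous for a T-DNA insertion in the Col-0 background, and the WT plants are labelled wild type. Age at harvest is given as 12 days in the series' design text and as 10 days in the extraction protocol. Set beside this comparison were 4 libraries each of uap1-2 and WT held at 4 °C for 24 h, which share no library with it. Also set beside it were 4 unstressed libraries of uap1-1, a second homozygous T-DNA line, whose comparison with WT uses the same WT libraries.

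UAP1 is named in the title of the series as a splicing factor. Splicing removes introns from transcripts, the spliceosome carries it out, and SR proteins (serine and arginine rich) help to choose splice sites. In cold-treated Arabidopsis the CBF transcription factors bind the core sequence CCGAC in promoters and switch on COR genes, whose products protect membranes and proteins. A count per gene measures how much transcript there is and not how it was spliced. The labels do not give the position of the insertion, and 0 genes of the deposited table bear the name UAP1, so the transcript of the mutated gene was not checked here.

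No gene differed between uap1-2 and WT at an adjusted p under 0.05. Of 21428 genes tested, edgeR (quasi-likelihood, Benjamini-Hochberg adjusted) called 0 (0%), and the smallest adjusted p was 0.431. At an unadjusted p under 0.05 there were 1152 genes (5.38%), with estimates above 0 for 404 of them (1.89% of all genes) and below 0 for 748 (3.49%). DESeq2 on the same counts called 13 genes, 6 with higher and 7 with lower levels in uap1-2. The 1152 depended on single libraries: the count was 460 without uap1-2 replicate 1, 647 without uap1-2 replicate 4, 2792 without uap1-2 replicate 3 and 1847 without WT replicate 4.

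The fit bounded most genes closely. The 95% interval of the log2 fold change, uap1-2 over WT, had a median half-width of 0.48, and for 15693 genes, 73.3%, it lay wholly between a halving and a doubling (log2 of -1 to 1). The middle 90% of estimates ran from -0.62 to 0.47, with a median of -0.03. Estimates beyond 2-fold in either direction numbered 545, or 2.54% of the genes. The scatter of estimates was widest among genes of low level, as the plot of all genes shows. All values are from whole seedlings, in which fewer cells of a type and less RNA per cell cannot be told apart.

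**Figure D1:**
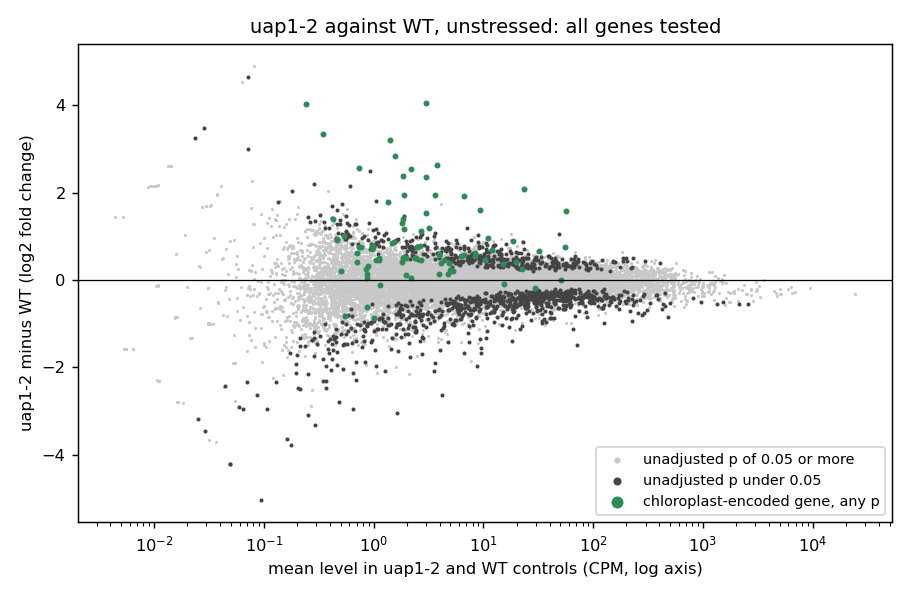
Each point is one of 21428 genes, with its mean level over the uap1-2 and WT control libraries (CPM, log axis) against its log2 fold change, uap1-2 minus WT. Dark points are the nuclear and mitochondrial genes among the 1152 at an unadjusted p under 0.05, and green points are the 86 chloroplast-encoded genes, 80 of which lie above 0.

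Library totals ran from 19545075 to 24917449 counts in uap1-2 and from 19786138 to 22860484 in WT. Whole profiles of a uap1-2 and a WT library were about as far apart as replicates were: the root mean square log2 difference had a median of 0.668 over 16 such pairs, 0.56 over the 6 pairs within uap1-2 and 0.718 over the 6 pairs within WT. On the first principal component of the 8 libraries (34.9% of the variance), uap1-2 replicate 3 lay with WT replicates 1 and 2, and the other 3 uap1-2 libraries lay with WT replicates 3 and 4. The abundant transcript of the light-harvesting gene LHCB1.3 took 2.08% to 2.80% of counts in uap1-2 and 1.57% to 3.88% in WT. Summed markers of root ran from 63.4 to 74.7 CPM (reads per 1000000 counted, after TMM scaling) in uap1-2 and from 64.8 to 97.6 in WT, and those of flowers from 92.8 to 110 in uap1-2 and from 88.9 to 125 in WT. Seed and embryo markers summed to at most 0.425 CPM in uap1-2 and 1.14 in WT, with the seed storage genes CRC and SESA1 at 0 counts in all 8 libraries.

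The 12 genes of smallest p are described next. They were picked by this comparison, so their values are a description. They are DREB3, GATL2, NDHH, AT1G80130, AT3G06955, SAUR71, GATA22, GAT1, PSAA, TRNF, AT2G01010 and NAC019, each at adjusted p = 0.431 except NAC019 at 0.441 (edgeR). Groups of 4 and 4 libraries did not overlap for 10 of them. Over all genes tested, 151 (0.705%) lay higher in uap1-2 with no overlap and 208 (0.971%) lay lower.

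DREB3 (AT5G11590, chromosome 5, 3727453 to 3728726, minus strand) encodes a factor of the DREB group, the family of the CBF proteins. It had 1.43, 1.35, 1.21 and 1.27 CPM in uap1-2, against 4.04, 2.2, 2.64 and 2.44 CPM in WT. The uap1-2 libraries were close to each other and all below the lowest WT library. The log2 fold change was -1.10 (SE 0.21, 95% interval -1.53 to -0.67), from 133 reads in uap1-2 and 245 in WT. In the cold the estimate was -0.39 (SE 0.19, adjusted p = 0.928 by edgeR).

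NAC019 (AT1G52890, chromosome 1, 19696923 to 19698482, minus strand) encodes a stress-related NAC transcription factor. It had 3.56, 4.48, 9.24 and 3.58 CPM in uap1-2, against 10.6, 11, 13.4 and 17.8 CPM in WT. All uap1-2 libraries lay below all WT libraries, with uap1-2 replicate 3 near the WT range. The log2 fold change was -1.34 (SE 0.31), and -0.37 in the cold (SE 0.29).

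SAUR71 (AT1G56150, chromosome 1, 21017311 to 21018122, plus strand) belongs to the small auxin up RNA family, whose members act in cell expansion. It had 0.619, 0.64, 1.25 and 0.393 CPM in uap1-2, against 1.45, 2.9, 2.21 and 2.08 CPM in WT, a log2 fold change of -1.57 (SE 0.34). The groups did not overlap, and in the cold the estimate was -0.02.

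An enzyme gene and a transporter gene were among those lower in uap1-2. GATL2 (AT3G50760, chromosome 3, 18867834 to 18869399, plus strand), of a family of putative cell wall galacturonosyltransferases, had 5.99, 5.44, 5.87 and 3.93 CPM in uap1-2, against 13.5, 13.2, 10.2 and 6.39 CPM in WT. GAT1 (AT1G08230, chromosome 1, 2583594 to 2586969, minus strand), a transporter of GABA, had 18.7, 27.9, 30.7 and 21.8 CPM in uap1-2, against 41.1, 44.7, 33.2 and 41.6 CPM in WT. Neither pair of groups overlapped, with log2 fold changes of -1.02 (SE 0.21) for GATL2 and -0.69 (SE 0.16) for GAT1. AT1G80130 (chromosome 1, 30140912 to 30142697, minus strand) had replicates close to each other, with 9.7, 11.4, 11.2 and 10.6 CPM in uap1-2, against 18.9, 18.5, 20.7 and 16.2 CPM in WT. Its log2 fold change was -0.79 (SE 0.17), and its cold estimate was 0.06.

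GATA22 (AT4G26150, chromosome 4, 13253084 to 13255106, plus strand), a GATA factor that responds to cytokinin and acts in chlorophyll synthesis, was the one nuclear protein-coding gene of the 12 with an estimate above 0. It had 4.18, 2.77, 3.66 and 5.67 CPM in uap1-2, against 2.12, 1.85, 2.04 and 2.35 CPM in WT. The groups did not overlap, with a log2 fold change of 0.96 (SE 0.21), and the estimate in the cold was -0.13.

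AT3G06955 and AT2G01010 were the members of the 12 with cold estimates beyond 2-fold and on the same side of 0. Both encode RNAs that are not translated. AT3G06955 (chromosome 3, 16498192 to 16498394, minus strand) is annotated as a long non-coding RNA. Its sequence is shown whole because its groups did not overlap in either condition, read from the TAIR10.1 reference 5′ to 3′ along its own strand:

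AT3G06955 chr3:16498192-16498394: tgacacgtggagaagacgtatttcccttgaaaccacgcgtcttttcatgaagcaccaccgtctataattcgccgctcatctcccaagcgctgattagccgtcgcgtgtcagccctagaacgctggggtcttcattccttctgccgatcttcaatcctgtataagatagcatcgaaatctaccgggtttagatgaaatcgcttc

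AT3G06955 had 1.16, 1.28, 2.71 and 1.13 CPM in uap1-2, against 0.259, 0.176, 0.128 and 0.532 CPM in WT. The groups did not overlap, and uap1-2 replicate 3 was the highest library. The log2 fold change was 2.50 (SE 0.54, 95% interval 1.38 to 3.62), from 157 reads in uap1-2 and 24 in WT. In the cold, in other libraries, it had 0.608, 0.419, 0.723 and 0.337 CPM in uap1-2, against 0, 0.192, 0.0491 and 0.0542 CPM in WT. These groups did not overlap either, with a log2 fold change of 2.73 (SE 0.69, adjusted p = 0.928 by edgeR). Unstressed uap1-1 had 1.61, 2.14, 1.58 and 3.71 CPM.

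AT2G01010 (chromosome 2, 3706 to 5513, plus strand) is an 18S ribosomal RNA gene near the end of chromosome 2. A second annotated copy, AT3G41768 (chromosome 3, 14197677 to 14199484, plus strand), has the same length of 1808 bases and differs from it at 2 positions counted from the start of the gene, T489C and T1327C (the base of AT2G01010 first). The 25 bases around each position are shown because only reads that cover one of them can be assigned to one copy, with the differing base in capitals:

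AT2G01010 around position 489, chr2:4182-4206: aaataacaatacTgggctctttcga
AT3G41768 around position 489, chr3:14198153-14198177: aaataacaatacCgggctctttcga
AT2G01010 around position 1327, chr2:5020-5044: taattccgttaaTgaacgagacctc
AT3G41768 around position 1327, chr3:14198991-14199015: taattccgttaaCgaacgagacctc

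AT2G01010 had 10.1, 10.4, 10.7 and 8.59 CPM in uap1-2, against 35.2, 22.6, 18.8 and 27.8 CPM in WT, a log2 fold change of -1.39 (SE 0.32). In the cold it had 3.46, 0.943, 3.44 and 2.16 CPM in uap1-2, against 8.17, 5.55, 6.38 and 4.82 CPM in WT, a log2 fold change of -1.31 (SE 0.34, adjusted p = 0.928 by edgeR). The groups overlapped in neither condition. Of the 12 genes, AT3G06955 and AT2G01010 alone had cold groups without overlap, with p = 0.0286 each by a two-sided exact permutation test, the smallest that 4 against 4 libraries allow, and 0.171 after Benjamini-Hochberg adjustment over the 12. The other copy, AT3G41768, averaged 430 ± 151 CPM in uap1-2 and 655 ± 379 CPM in WT (SD, n = 4 each), with overlapping groups and a log2 fold change of -0.61 (SE 0.55). How reads of the near-identical copies were shared between them is not stated, so the level of either copy is uncertain. With the unstressed and cold differences averaged in one contrast, AT3G06955 stood at 2.61 (SE 0.44) and AT2G01010 at -1.35 (SE 0.23), each with adjusted p = 0.0679 by edgeR, and 0 genes were called.

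**Figure D2:**
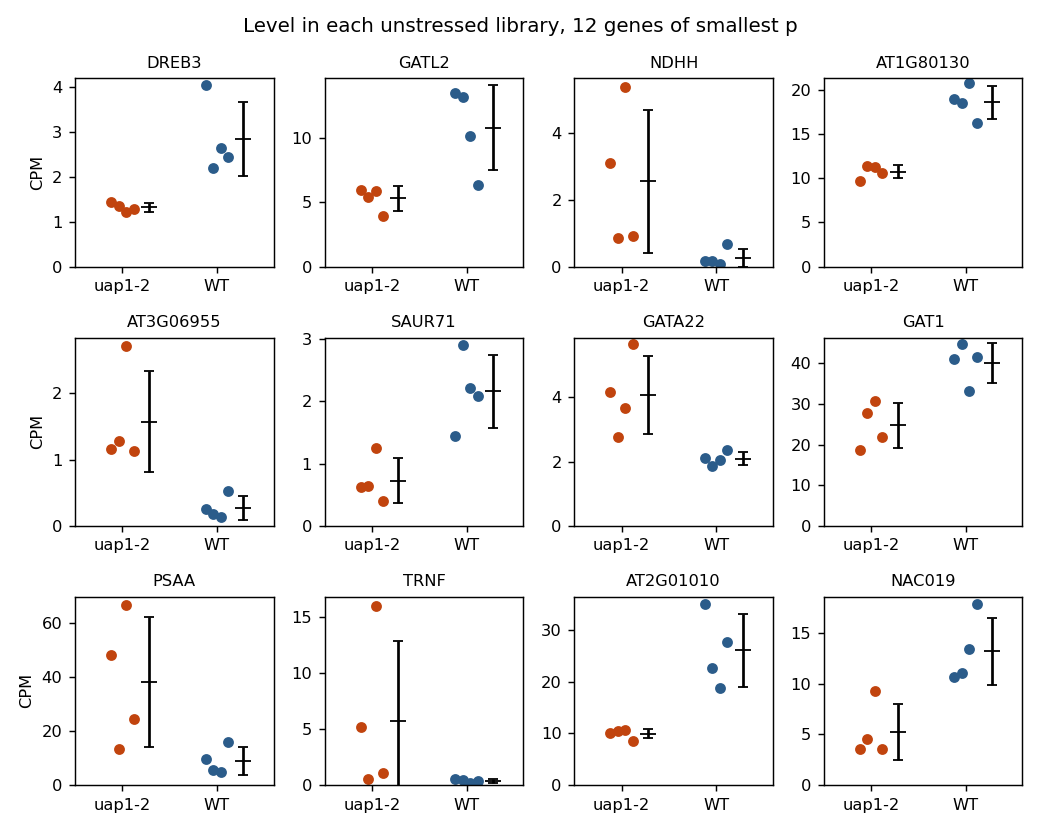
Levels (CPM after TMM scaling, axes from 0) of the 12 genes of smallest p in each of the 4 uap1-2 and 4 WT control libraries, with the mean and SD in black. Groups overlap for PSAA and TRNF and for no other gene of the 12, and uap1-2 replicate 3 is the highest uap1-2 library for TRNF at 15.9 CPM.

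The remaining 3 of the 12 were chloroplast-encoded, and the chloroplast genome had the highest share of genes at an unadjusted p under 0.05. That share was 29.1% (25 of 86 tested genes) for the chloroplast, 5.02% to 5.63% on each of the 5 nuclear chromosomes and 0% (0 of 22) for mitochondria. All 25 had estimates above 0, as did 80 of the 86 and 45.7% of all genes, and the median log2 fold change of the 86 was 0.62. Chloroplast transcripts mostly lack long poly(A) tails, and the libraries were selected with oligo(dT). Their reads made up 0.0879%, 0.0386%, 0.107% and 0.0637% of counts in uap1-2 replicates 1 to 4, against 0.0447%, 0.0374%, 0.0278% and 0.0627% in WT, and the groups overlapped.

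PSAA (ATCG00350), a core subunit gene of photosystem I, had 48.3, 13.3, 66.6 and 24.3 CPM in uap1-2, against 9.52, 5.41, 4.77 and 16 CPM in WT, a log2 fold change of 2.09 (SE 0.48). NDHH (ATCG01110), a subunit gene of the chloroplast NADH dehydrogenase-like complex, had 3.09, 0.853, 5.37 and 0.916 CPM in uap1-2, against 0.155, 0.176, 0.0852 and 0.665 CPM in WT. Its groups did not overlap, at a log2 fold change of 3.21 (SE 0.68). TRNF (ATCG00410), a phenylalanine tRNA gene, had 5.18, 0.497, 15.9 and 1.09 CPM in uap1-2, against 0.517, 0.396, 0.128 and 0.31 CPM in WT.

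In each of these genes uap1-2 replicates 1 and 3 were the high libraries, the same libraries whose chloroplast share was highest. RBCL (ATCG00490), the large subunit of Rubisco and the most abundant of the 25, averaged 84.2 CPM in uap1-2 and 28.3 CPM in WT, a log2 fold change of 1.58 (SE 0.56). In the cold the median of the 86 genes was 0.04, with 1 higher and 2 lower at an unadjusted p under 0.05. The cold estimates of PSAA, NDHH and TRNF were -0.09, -0.12 and -0.04. Leaving out uap1-2 replicate 3 gave 19 genes higher, 1 lower and a median of 0.44, and the part of the library shares in these values was not tested. With libraries weighted by their quality (limma voom), 7 of the 86 were higher and 3 lower, with a median of 0.24.

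**Figure D3:**
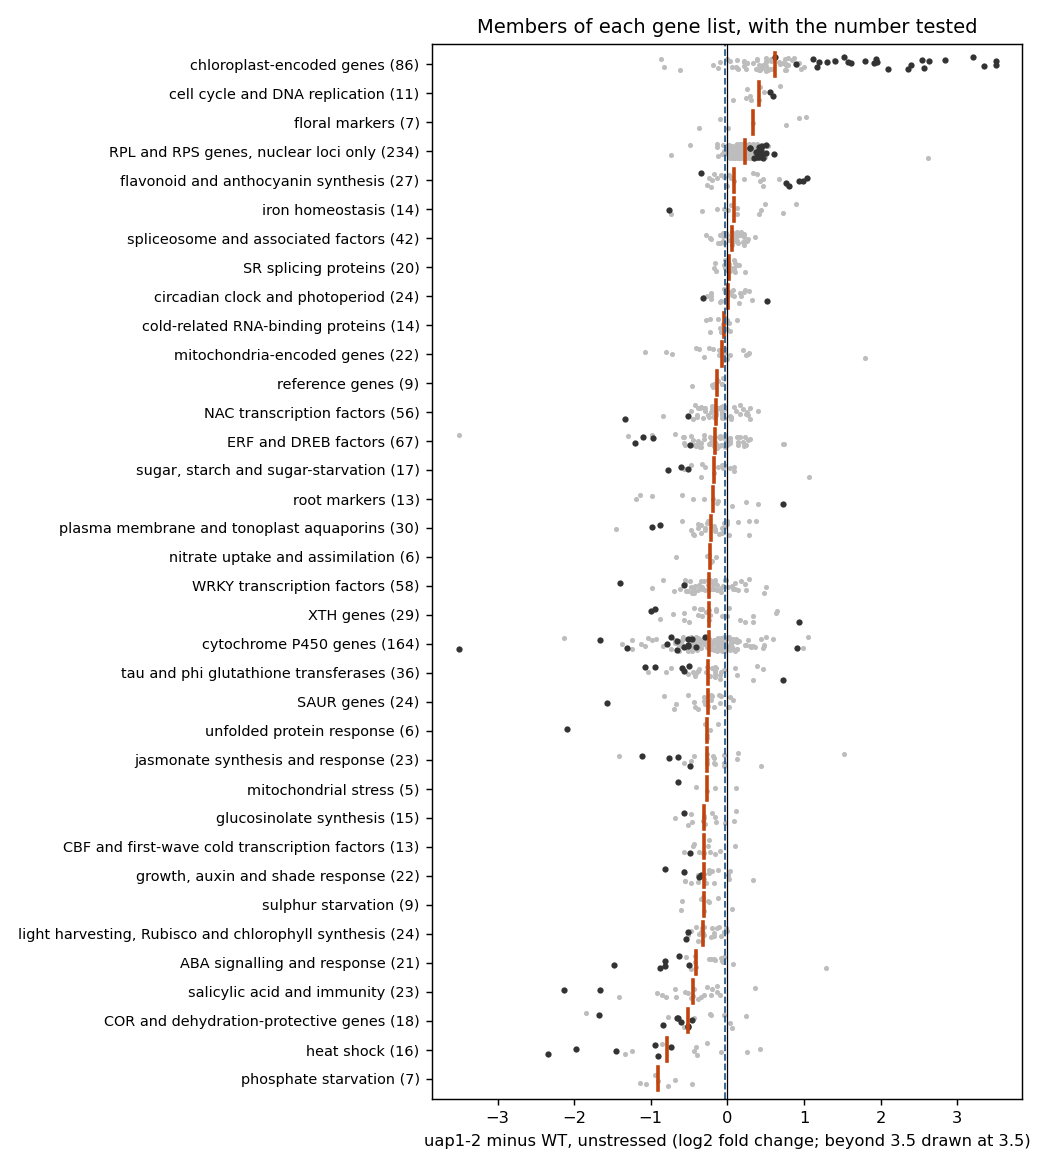
Log2 fold changes, uap1-2 minus WT in unstressed seedlings, of the members of each gene list with at least 5 tested members; the number tested is in brackets and the lists are ordered by their median (orange bar). Black points have an unadjusted p under 0.05, the dashed line is the median of all genes (-0.03), and estimates beyond 3.5 are drawn at 3.5. Chloroplast-encoded genes lie highest, at a median of 0.62, and phosphate starvation and heat shock genes lowest, at -0.91 and -0.79.

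Genes that carry out or regulate splicing had estimates close to 0 in uap1-2 against WT. Of 20 SR protein genes, 0 had an unadjusted p under 0.05, their estimates ran from -0.18 to 0.23, and the median was 0.03. The 95% interval of each of the 20 lay between a halving and a doubling. With single libraries left out, 0 or 1 of them had an unadjusted p under 0.05, and the median lay between -0.02 and 0.09. RS31 (AT3G61860), the SR gene of smallest p, had 68, 58.2, 57.4 and 78.5 CPM in uap1-2, against 45, 52.4, 62.5 and 62.8 CPM in WT. The groups overlapped, at a log2 fold change of 0.23 (SE 0.12, 95% interval -0.02 to 0.49, adjusted p = 0.865 by edgeR). SR45 (AT1G16610), an SR-like protein, had an estimate of -0.16 (SE 0.17), and SR34 (AT1G02840), counterpart of a human splicing factor, one of 0.10 (SE 0.10).

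Of 42 spliceosome and associated genes, 0 had an unadjusted p under 0.05, and the intervals of 40 lay within the 2-fold bounds. Estimates ran from -0.28 for SF1, which binds the branch point, to 0.36 for LSM8, of the ring of Sm-like proteins around the U6 small nuclear RNA. LSM8 (AT1G65700) had 27.5, 19, 20.4 and 19.1 CPM in uap1-2, against 18.2, 18.6, 12.5 and 17.9 CPM in WT. Its groups did not overlap, though the nearest libraries stood at 19 CPM in uap1-2 and 18.6 CPM in WT, and the 95% interval of its log2 fold change ran from -0.04 to 0.75. The core proteins PRP8 and BRR2A had estimates of -0.23 and -0.22, and U1-70K, of the particle that binds the 5′ splice site, one of 0.21. When libraries were scaled by their totals, 4 of the 42 had an unadjusted p under 0.05, all with estimates above 0. With one library left out there were 3 higher without uap1-2 replicate 3, 1 higher and 2 lower without WT replicate 2, and 1 higher without WT replicate 1 or 3. The median of 0.07 was -0.02 without uap1-2 replicate 4, and it lay between 0.01 and 0.09 without any other single library.

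Of 14 cold-related RNA-binding protein genes, 0 had an unadjusted p under 0.05 and all 14 intervals lay within the 2-fold bounds. The median was -0.05, and 0.05 with library totals, and ran from -0.135 without WT replicate 3, with 1 lower at such a p, to 0.02 without WT replicate 1. The member of smallest p was UBP1B (AT1G17370), an RNA-binding protein gene with 47.8 ± 6.59 CPM in uap1-2 and 56.0 ± 8.87 CPM in WT (SD, n = 4 each) and a log2 fold change of -0.23 (SE 0.14). The glycine-rich protein genes GRP7 and GRP8, which bind RNA and cycle with the clock, had estimates of 0.00 and -0.02.

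**Figure D4:**
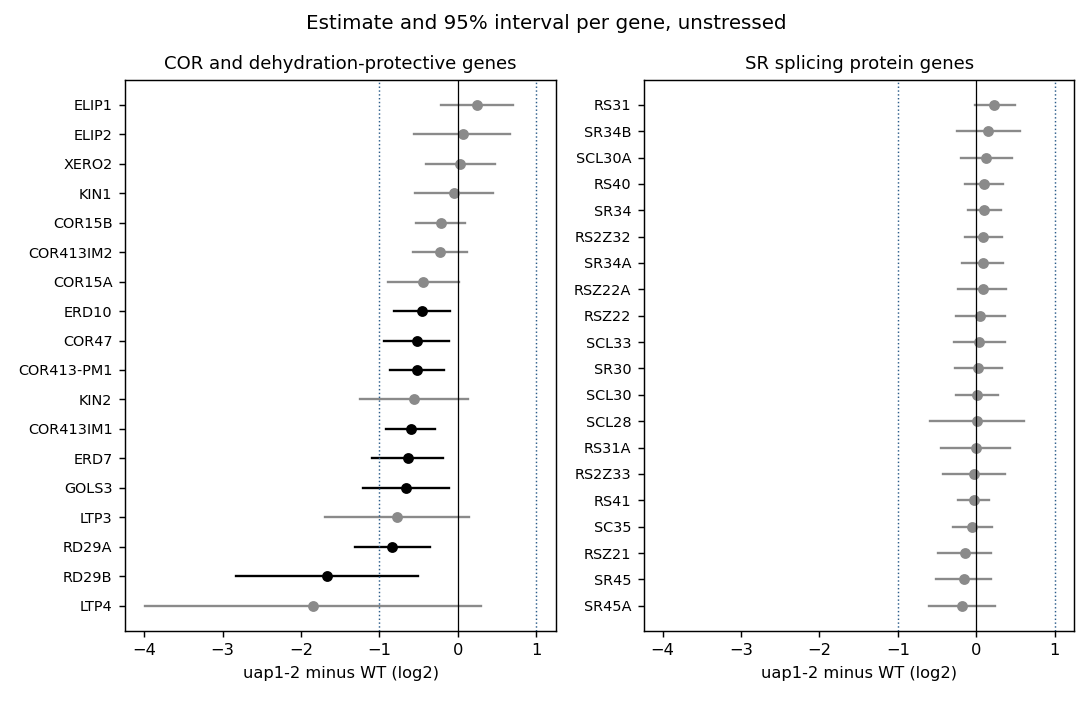
Log2 fold change, uap1-2 minus WT in unstressed seedlings, with its 95% interval for 18 COR and dehydration-protective genes (left) and 20 SR splicing protein genes (right). Black marks an unadjusted p under 0.05 and dotted lines mark 2-fold. All 20 SR intervals stay inside the dotted lines, and 8 of the 18 COR genes are black, all below 0.

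COR and dehydration-protective genes lay mostly below WT levels in unstressed uap1-2, with 0 of 18 called. Of the 18, 15 had estimates below 0, where 54.2% of all genes did. There were 8 with an unadjusted p under 0.05, all below 0 (3.49% of all genes). The median was -0.52. Leaving out any one of the 8 libraries gave 6 to 10 such genes and a median of -0.65 to -0.47. The groups did not overlap for 4 of the 18: COR413IM1, RD29A, ERD10 and GOLS3, each lower in uap1-2. Over all genes, 0.971% lay lower with no overlap.

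COR413IM1 (AT1G29395, chromosome 1, 10288129 to 10289666, minus strand), which encodes a membrane protein of the chloroplast envelope, had 57.1, 71.4, 76.4 and 60.3 CPM in uap1-2, against 102, 105, 97.3 and 98.5 CPM in WT. The WT libraries were close to each other and all above uap1-2. The log2 fold change was -0.60 (SE 0.15, 95% interval -0.92 to -0.29, adjusted p = 0.516 by edgeR). In the cold the estimate was 0.00 (SE 0.15).

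RD29A (AT5G52310), a hydrophilic protein gene used as a reporter of cold, drought and ABA responses, had 287, 357, 385 and 359 CPM in uap1-2, against 499, 531, 746 and 703 CPM in WT. The log2 fold change was -0.84 (SE 0.23). Its tandem neighbour RD29B (AT5G52300), which responds mainly to abscisic acid (ABA), had 3.29, 2.27, 3.75 and 3.53 CPM in uap1-2, against 9.73, 3.56, 6.82 and 20.7 CPM in WT. The RD29B groups overlapped and the WT libraries spread widely, at a log2 fold change of -1.67 (SE 0.56).

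The dehydrin gene ERD10 (AT1G20450) had 237, 238, 210 and 213 CPM in uap1-2, against 245, 316, 328 and 345 CPM in WT, a log2 fold change of -0.46 (SE 0.18). GOLS3 (AT1G09350), a galactinol synthase for raffinose sugars, had 2.4, 3.62, 3.91 and 2.31 CPM in uap1-2, against 4.55, 5.37, 4.09 and 5.37 CPM in WT. The gaps between the groups were narrow in both genes. COR47, COR413-PM1 and ERD7 made up the rest of the 8, at -0.52, -0.52 and -0.64. COR15A, a chloroplast membrane protector, stood at -0.44 (SE 0.22), and KIN1, XERO2 and the early light-induced genes ELIP1 and ELIP2 at -0.05, 0.03, 0.24 and 0.06.

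The 250 bases before the annotated start were searched for CCGAC, the core bound by CBF factors, and for ACGTG, the core of the ABA response element, on both strands. CCGAC stood in 7 of the 18 windows of the list (38.9%) and in 12.7% of the 21319 windows of all nuclear genes tested. ACGTG stood in 9 of the 18 and in 23.6% of all windows, and CACGTG counts as a match on each strand. Of the 4 genes whose groups did not overlap, 3 held a motif, and their windows are printed for the reader to place them, 5′ to 3′ along the gene with either motif in capitals (TAIR10.1):

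RD29A chr5:21240467-21240716, plus strand: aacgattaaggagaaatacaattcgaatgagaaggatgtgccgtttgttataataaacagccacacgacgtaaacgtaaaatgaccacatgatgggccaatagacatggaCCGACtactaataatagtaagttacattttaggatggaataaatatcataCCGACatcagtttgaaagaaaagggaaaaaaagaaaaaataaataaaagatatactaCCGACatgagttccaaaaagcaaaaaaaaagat
GOLS3 chr1:3019389-3019638, plus strand: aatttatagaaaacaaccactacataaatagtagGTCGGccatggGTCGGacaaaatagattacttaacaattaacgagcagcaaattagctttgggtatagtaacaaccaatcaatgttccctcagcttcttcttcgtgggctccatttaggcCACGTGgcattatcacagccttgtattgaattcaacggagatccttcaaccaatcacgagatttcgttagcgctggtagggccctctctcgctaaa
COR413IM1 chr1:10289667-10289916, minus strand: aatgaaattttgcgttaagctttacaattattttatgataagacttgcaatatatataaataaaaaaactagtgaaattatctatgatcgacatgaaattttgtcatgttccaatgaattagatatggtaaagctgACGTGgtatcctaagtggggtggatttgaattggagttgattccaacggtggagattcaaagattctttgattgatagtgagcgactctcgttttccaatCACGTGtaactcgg

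RD29A held 3 CCGAC matches and no ACGTG match, GOLS3 held 2 of CCGAC and 2 of ACGTG, and COR413IM1 held 3 ACGTG matches and none of CCGAC. ERD10 and COR47, also lower at an unadjusted p under 0.05, held neither motif, while RD29B, COR413-PM1 and ERD7 held at least 1 match. Among members with a larger p, COR15A, KIN1, KIN2, COR413IM2, XERO2 and ELIP1 held a motif, XERO2 with 3 CCGAC matches. COR15B, ELIP2, LTP3 and LTP4 held none. The share of all windows with either motif was not counted. A match is a description of the letters in the window and not a measured binding site.

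The CBF and first-wave cold transcription factor list holds CBF1, CBF2, CBF3 and other factors such as RAV1 and RAP2.1. It had estimates below 0 in 12 of 13 tested members (54.2% of all genes), with a median of -0.30. Lower at an unadjusted p under 0.05 was 1 member (3.49% of all genes). That member was CBF3 (AT4G25480), with 15.3, 14.1, 16 and 12.3 CPM in uap1-2, against 26.7, 21.6, 14 and 18.6 CPM in WT. The groups overlapped, at a log2 fold change of -0.49 (SE 0.20, adjusted p = 0.865 by edgeR). CBF3 shares bases with AT4G07385, which runs the other way, and reads from those bases cannot be told apart without strand. CBF1 and CBF2 had estimates of -0.45 and -0.56. Without uap1-2 replicate 3 the list had 6 such genes and a median of -0.63. Without uap1-2 replicate 4 it had 0 and a median of -0.05, and without WT replicate 1 or 2 it also had 0.

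ABA signalling and response genes had 19 of 21 estimates below 0 (54.2% of all genes) and a median of -0.41. There were 6 at an unadjusted p under 0.05, all below 0 (3.49% of all genes). NCED3 (AT3G14440), which catalyses the rate-limiting step of ABA synthesis, had 12, 8.92, 17.8 and 11.5 CPM in uap1-2, against 34.2, 20.6, 17 and 20.8 CPM in WT. The groups overlapped by 1 library, at a log2 fold change of -0.88 (SE 0.29, adjusted p = 0.865 by edgeR). RAB18, an ABA-induced dehydrin, averaged 37.5 ± 29.4 CPM in uap1-2 and 105 ± 58.9 CPM in WT (SD, n = 4 each), a log2 fold change of -1.48 (SE 0.58). RD20 was the member whose groups did not overlap, with 13.3, 12.2, 16.3 and 15.9 CPM in uap1-2, against 21.7, 20.2, 22.8 and 24.8 CPM in WT. The count of 6 became 2 without uap1-2 replicate 2 and 3 without WT replicate 4, and 3 with library totals. The median was -0.27 without WT replicate 1.

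HAI1 (AT5G59220, SAG113 in the deposited table), an ABA-induced protein phosphatase that acts as a negative regulator of ABA signalling, separated the 2 insertion lines. It had 18.2, 10.8, 16.1 and 15.4 CPM in uap1-2, 3.09, 1.67, 2.42 and 3.25 CPM in uap1-1, and 36.3, 17.4, 19.4 and 33 CPM in WT. All uap1-1 libraries lay below all others, while uap1-2 and WT overlapped. Against WT, the log2 fold change was -0.81 in uap1-2 (SE 0.38, adjusted p = 0.865) and -3.34 in uap1-1 (SE 0.43, adjusted p = 0.00165), both by edgeR. Tested directly, the level in uap1-2 was above that in uap1-1 by 2.53 on the log2 scale (SE 0.42, adjusted p = 0.0441 by edgeR). That call was lost with library totals, with the replicate block and without any one uap1-2 or uap1-1 library other than uap1-2 replicate 2.

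UGT78D4 (AT5G17040), of the flavonoid glycosyltransferase subfamily, was the other gene called between the lines, and its call was lost in the fit to those 8 libraries alone. It had 0.58, 0.462, 0.416 and 0.436 CPM in uap1-2, against 2.42, 1.48, 1.51 and 1.29 CPM in uap1-1, a log2 difference of -1.81 (SE 0.20, adjusted p = 0.000157 by edgeR). WT had 0.776, 0.792, 0.852 and 0.621 CPM, between the lines and overlapping neither. Against WT, uap1-2 stood at -0.67 (SE 0.22, adjusted p = 0.865) and uap1-1 at 1.13 (SE 0.19, adjusted p = 0.0675), both by edgeR. In the cold, uap1-2 against WT stood at -0.04 (SE 0.37) for HAI1 and -0.27 (SE 0.15) for UGT78D4. The 2 genes were 0.00933% of the 21428 tested between the lines, and the one call in uap1-1 against WT 0.00467%. At an unadjusted p under 0.05 there were 1354 genes (6.32%) between the lines and 1961 (9.15%) in uap1-1 against WT.

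**Figure D5:**
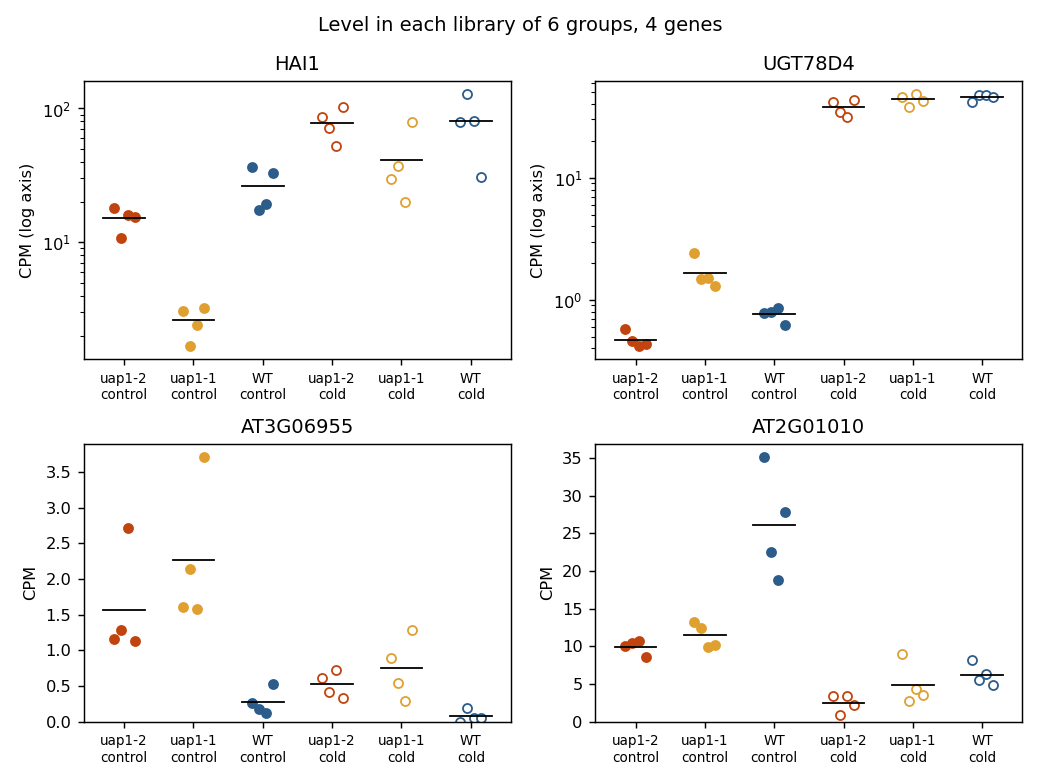
Levels (CPM after TMM scaling; log axes for HAI1 and UGT78D4, axes from 0 for the others) of 4 genes in the 4 libraries of each of the 6 groups, with filled points for control, open points for cold and a bar for the mean. HAI1 is lowest in unstressed uap1-1, UGT78D4 is lowest in unstressed uap1-2, AT3G06955 is higher in uap1-2 than in WT in both conditions and AT2G01010 is lower.

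Heat shock genes, which encode chaperones, had a median of -0.79, with 14 of 16 estimates below 0 (54.2% of all genes). Lower at an unadjusted p under 0.05 were 6 (3.49% of all genes), and 0 were higher. HSP70 (AT3G12580), the member of smallest p, had 15.5, 15, 34.2 and 10.3 CPM in uap1-2, against 24.2, 30.3, 58.6 and 27.5 CPM in WT. Replicate 3 was the highest library in both groups, and the groups overlapped, at a log2 fold change of -0.91 (SE 0.32, adjusted p = 0.865 by edgeR). The small heat shock protein gene HSP17.4A (AT3G46230) had 0.116, 0.249, 0.499 and 0.349 CPM in uap1-2, against 0.517, 0.792, 1.45 and 0.577 CPM in WT. Leaving out WT replicate 3 reduced the 6 to 1 with a median of -0.44, and leaving out uap1-2 replicate 2 to 2. With any one of uap1-2 replicates 1 and 4 or WT replicates 2 and 4 left out there were 4, and without uap1-2 replicate 3 there were 8 with a median of -1.09. The fit to the 8 libraries alone gave 3 and a median of -0.39. In the cold the median was -0.98, with 8 of 16 at an unadjusted p under 0.05, all below 0 (2.12% of all genes in that direction).

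Genes of the cytosolic and organellar ribosome, taken as nuclear genes with symbols beginning RPL or RPS, had estimates above 0 in 222 of 234 members, where 45.7% of all genes did. The median was 0.23, and 222 of the 234 intervals lay within the 2-fold bounds. At an unadjusted p under 0.05 there were 18, all above 0 (1.89% of all genes). RPL11A (AT2G42740), the member of smallest p, had 27.8, 19.6, 15.3 and 22.6 CPM in uap1-2, against 17.1, 12.4, 10.9 and 15.8 CPM in WT, a log2 fold change of 0.61 (SE 0.20, adjusted p = 0.865 by edgeR). RPL31A was the member whose groups did not overlap, with 75.9, 57.2, 62.2 and 62.2 CPM in uap1-2, against 49.6, 55, 47.3 and 50.7 CPM in WT.

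Closely similar ribosomal protein genes may share reads, so that single members are uncertain. The count of 18 rested on single libraries. It was 96 without WT replicate 1, 50 without uap1-2 replicate 3, 5 without WT replicate 2, 4 without WT replicate 3 and 2 without uap1-2 replicate 1, with medians of 0.08 to 0.43. It was 94 with library totals, 36 with replicate number as a block and 6 in a fit to the 8 libraries alone. With the 18 chloroplast loci that share such symbols the list had 252 members, 23 of them higher at an unadjusted p under 0.05, and its smallest p was that of the chloroplast gene RPS15 (0.631 ± 0.305 CPM in uap1-2 and 0.0545 ± 0.0416 CPM in WT, SD, n = 4 each).

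All 11 cell cycle and DNA replication genes had estimates above 0 (45.7% of all genes), with a median of 0.41. Higher at an unadjusted p under 0.05 were 2 (1.89% of all genes). CYCA1;1 (AT1G44110), a mitotic cyclin gene, had 22.3, 20.2, 8.49 and 18.9 CPM in uap1-2, against 14.6, 8.98, 9.12 and 13.8 CPM in WT. The groups overlapped through uap1-2 replicate 3, at a log2 fold change of 0.59 (SE 0.24). The summed level of the list ran from 111 to 268 CPM in uap1-2 and from 124 to 197 CPM in WT. Without uap1-2 replicate 3, 9 of the 11 had an unadjusted p under 0.05, without uap1-2 replicate 4, 1 did, and without uap1-2 replicate 1 or 2 or WT replicate 2 or 3, 0 did. WT replicate 4 left out gave 3. The median ran from 0.22 without uap1-2 replicate 1 to 0.63 without uap1-2 replicate 3, and in the fit to the 8 libraries alone 0 had such a p.

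Flavonoid and anthocyanin genes were split. Of 27, 5 were higher at an unadjusted p under 0.05 (1.89% of all genes) and 1 was lower (3.49% of all genes). The lower gene was PAL1, phenylalanine ammonia-lyase, at -0.35, and the median was 0.09. The 5 were the late enzymes DFR, LDOX and UF3GT, the early enzyme F3H and the regulator TT8. DFR (AT5G42800), dihydroflavonol reductase, had 13.6, 12.3, 6.7 and 15 CPM in uap1-2, against 9.31, 5.24, 3.66 and 5.06 CPM in WT.

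LDOX, which acts after DFR, had 15.4, 15.5, 6.49 and 17 CPM in uap1-2, against 14.4, 7.17, 3.19 and 6.43 CPM in WT. In both genes replicate 3 was the lowest library of its group. Their log2 fold changes were 1.04 (SE 0.33) and 0.81 (SE 0.37), and UF3GT stood at 0.99 (SE 0.38), each at adjusted p = 0.865 by edgeR. The count of 5 became 2 in the fit to the 8 libraries alone, 2 without uap1-2 replicate 1 or 4 or WT replicate 3, and 3 without uap1-2 replicate 2 or WT replicate 2, but 7 without uap1-2 replicate 3. The median lay between 0.02 without uap1-2 replicate 3 and 0.20 without WT replicate 1, and 0 or 1 gene was lower. In the cold DFR stood at 0.79 (SE 0.33), while 2 members were higher and 5 lower at an unadjusted p under 0.05.

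Light-harvesting, Rubisco and chlorophyll synthesis genes had 23 of 24 estimates below 0 (54.2% of all genes). The estimates ran from -0.54 to 0.00, with a median of -0.32. LHCB2.2 (AT2G05070), an antenna protein gene of photosystem II, was the member of smallest p, with 939, 1160, 1270 and 958 CPM in uap1-2, against 2310, 1650, 1170 and 1160 CPM in WT. The groups overlapped, and WT replicate 1 was the highest library. Its log2 fold change was -0.54 (SE 0.23). LHCB2.2 was 1 of 2 lower members at an unadjusted p under 0.05 (3.49% of all genes), a count that rested on single libraries. It was 6 without WT replicate 3, 5 without uap1-2 replicate 3 and 4 without WT replicate 4, but 1 without uap1-2 replicate 2, and 0 without uap1-2 replicate 1 or 4 or WT replicate 1 or 2 and in the fit to the 8 libraries alone. The median ran from -0.46 without WT replicate 3 to -0.02 without WT replicate 1, and was -0.18 with library totals. The near-identical LHCB genes share reads to an extent that is not known here, and LHCB1.5, which lies on the opposite strand to 2 overlapping genes, had 0 counts in all 8 libraries.

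In defence lists the estimates lay mostly below 0. Of 23 salicylic acid and immunity genes, 22 were below 0 (54.2% of all genes) with a median of -0.45. At an unadjusted p under 0.05, 2 were lower (3.49% of all genes), FMO1 at -2.13 (SE 0.69) and PAD3 at -1.66 (SE 0.56). FMO1, an enzyme of systemic resistance, had 0.0387, 0.604, 0.166 and 0.131 CPM in uap1-2, against 0.207, 2.2, 1.28 and 0.577 CPM in WT. PAD3, the last enzyme of camalexin synthesis, averaged 4.52 ± 3.64 CPM in uap1-2 and 14.3 ± 10.6 CPM in WT (SD, n = 4 each). The SD within each group came close to its mean. The count of 2 became 9 without uap1-2 replicate 3 and 5 without WT replicate 1, and 1 without WT replicate 3. The median ran from -0.81 without uap1-2 replicate 3 to -0.20 without WT replicate 2, and was -0.29 without WT replicate 3.

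Of 23 jasmonate genes 19 were below 0 (54.2% of all genes), with a median of -0.26. Lower at an unadjusted p under 0.05 were 4 (3.49% of all genes). CORI3 (AT4G23600), a jasmonate- and coronatine-induced aminotransferase, had 35.5, 35.3, 48.2 and 47.3 CPM in uap1-2, against 60.7, 60.1, 143 and 96.4 CPM in WT. The groups did not overlap, at a log2 fold change of -1.11 (SE 0.27, adjusted p = 0.499 by edgeR), and the cold estimate was 0.09. The synthesis genes AOS and AOC2 stood at -0.65 and -0.49, and the repressor gene JAZ1 at -0.76. MYC2, the main jasmonate transcription factor, had 6 counts over the 8 libraries and was not tested, and it overlaps a gene on the opposite strand. The count of 4 became 7 without uap1-2 replicate 3, 2 without uap1-2 replicate 4 or WT replicate 3, and 1 without uap1-2 replicate 1 or 2. The median was -0.155 without uap1-2 replicate 1.

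Genes of growth, auxin and shade response had a median of -0.31, with 4 of 22 lower at an unadjusted p under 0.05 (3.49% of all genes). The auxin synthesis gene YUC9 averaged 1.66 ± 0.639 CPM in uap1-2 and 2.91 ± 0.59 CPM in WT (SD, n = 4 each), a log2 fold change of -0.81. PIF5, a phytochrome-interacting factor, had 55.4, 81.1, 86.6 and 73.8 CPM in uap1-2, against 100, 103, 89.1 and 92.8 CPM in WT, with no overlap and an estimate of -0.37 (SE 0.16). The count of 4 became 0 without uap1-2 replicate 4, 1 without uap1-2 replicate 1 or WT replicate 2, and 2 without uap1-2 replicate 2 or WT replicate 1. It was 5 without uap1-2 replicate 3 or WT replicate 4, and 1 in the fit to the 8 libraries alone and with library totals. The median ran from -0.45 without uap1-2 replicate 3 to -0.13 without WT replicate 2. Among sugar and starch genes 3 of 17 were lower and the median was -0.17, or -0.36 without uap1-2 replicate 2 and -0.08 without uap1-2 replicate 1. Leaving out any one library gave 3 or 4 lower sugar and starch genes. The sucrose transporter gene SWEET11 averaged 25.3 ± 9.47 CPM in uap1-2 and 43.1 ± 6.11 CPM in WT (-0.77, SE 0.21), and TPS5, of the trehalose phosphate synthase family, 24.6 ± 1.64 CPM in uap1-2 and 35.2 ± 6.69 CPM in WT with no overlap (-0.52, SE 0.15).

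The circadian list was centred near 0, with a median of 0.01 over 24 genes and 1 higher and 1 lower at an unadjusted p under 0.05. Over all genes, 1.89% were higher and 3.49% lower at such a p. RVE2 (AT5G37260), a morning-phased MYB-like factor, had 22.5, 20.6, 26.6 and 24.3 CPM in uap1-2, against 15.1, 17.2, 17.1 and 16.1 CPM in WT. The groups did not overlap, with a log2 fold change of 0.52 (SE 0.20), and the cold estimate was -0.12. The lower gene was GI, at -0.32 (SE 0.15). The median lay between -0.06 without uap1-2 replicate 3 and 0.13 without uap1-2 replicate 1, and 0 genes were lower without uap1-2 replicate 1 or WT replicate 1 or 3.

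Nutrient lists were mostly below 0 with few small p-values. All 7 phosphate starvation genes were below 0 (54.2% of all genes), with a median of -0.91, and 0 had an unadjusted p under 0.05. With one library left out the median ran from -1.35 without uap1-2 replicate 3 to -0.57 without uap1-2 replicate 4, and was -0.60 without WT replicate 2. There were 2 members at an unadjusted p under 0.05 without uap1-2 replicate 3 or WT replicate 1, and 1 without WT replicate 4. PHT1;4, a phosphate transporter gene, had 3.52, 9.56, 12 and 1.57 CPM in uap1-2, against 7.19, 15.3, 16.3 and 11.4 CPM in WT, so that libraries of one group differed by more than the groups did. Its 95% interval ran from -1.95 to 0.12. The nitrate list had 6 of 6 below 0 (NRT1.1, a nitrate transporter, at -0.67) and the sulphur list 8 of 9 (APR2, of sulphate reduction, at -0.31), with 0 at an unadjusted p under 0.05 in either. The nitrate median of -0.23 ran from -0.525 without uap1-2 replicate 3, with 2 members at such a p, to -0.07 without uap1-2 replicate 4. The sulphur median of -0.31 ran from -0.41 without uap1-2 replicate 2, with 1 such member, to -0.16 without WT replicate 4.

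The iron list had a median of 0.08 with 1 of 14 lower at an unadjusted p under 0.05 (3.49% of all genes). This was FER1, an iron storage gene, at 136, 136, 387 and 106 CPM in uap1-2, against 141, 278, 443 and 433 CPM in WT. Replicate 3 was high in both groups, and 0 members were lower without any one of uap1-2 replicates 1, 2 and 4 and WT replicates 3 and 4. Without WT replicate 1 the list had 4 members higher at an unadjusted p under 0.05 and a median of 0.45, and without WT replicate 4 its median was -0.01. Glucosinolate genes had 13 of 15 below 0 (CYP83B1, of indole glucosinolate synthesis, at -0.56), unfolded protein response genes 6 of 6 (the chaperone gene BIP3 at -2.09, SE 0.91) and mitochondrial stress genes 4 of 5 (the dehydrogenase gene NDB2 at -0.64). Each of these 3 lists had 1 member at an unadjusted p under 0.05, the one named, and each of these counts changed with single libraries. Over all genes, 54.2% had estimates below 0 and 3.49% were lower at such a p. The glucosinolate list had 3 without uap1-2 replicate 3 and 2 without WT replicate 1, but 0 without uap1-2 replicate 1 or 4 or WT replicate 2, and its median of -0.30 was -0.16 without WT replicate 1 and -0.19 without uap1-2 replicate 1. The unfolded protein list had 2 without WT replicate 1, but 0 without uap1-2 replicate 1, 2 or 4 or WT replicate 3, with the replicate block and in the fit to the 8 libraries alone, and its median of -0.26 was -0.07 without WT replicate 3. The mitochondrial stress list had 2 without uap1-2 replicate 3 and 0 without uap1-2 replicate 4, and its median of -0.27 was -0.14 without WT replicate 3.

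Larger families were taken by symbol. Of 164 cytochrome P450 genes 124 were below 0 (54.2% of all genes), with a median of -0.24. At an unadjusted p under 0.05, 14 were lower (3.49% of all genes) and 1 higher (1.89% of all genes). CYP89A9, an enzyme of chlorophyll breakdown, averaged 42.5 ± 17.6 CPM in uap1-2 and 66.9 ± 5.48 CPM in WT (SD, n = 4 each). The 14 became 45 without uap1-2 replicate 3, 24 without WT replicate 4, 8 without WT replicate 2 and 5 without uap1-2 replicate 1 or 4, and 31 with quality weights. The median ran from -0.39 without uap1-2 replicate 3 to -0.16 without WT replicate 3. Of 36 tau and phi glutathione transferases 5 were lower and 1 higher (GSTU27, of smallest p, at -0.57, SE 0.19). The 5 became 13 without uap1-2 replicate 3, 3 without WT replicate 2, 2 without uap1-2 replicate 2 and 1 without uap1-2 replicate 1 or 4 or WT replicate 3. The median of -0.25 ran from -0.59 without uap1-2 replicate 3 to -0.14 without uap1-2 replicate 4.

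Among transcription factor families, 4 of 67 ERF and DREB, 2 of 56 NAC and 2 of 58 WRKY genes were lower and 0 were higher at an unadjusted p under 0.05, with medians of -0.16, -0.15 and -0.24. WRKY55, at -1.40 (SE 0.65), was the WRKY gene of smallest p. Of all genes tested 3.49% were lower at such a p, so the NAC and WRKY counts were near the background. The lower ERF and DREB genes numbered 7 without uap1-2 replicate 3 and 2 without WT replicate 1, with medians of -0.34 in the first case and of -0.06 without uap1-2 replicate 4. The lower NAC genes numbered 10 without uap1-2 replicate 3, 2 without WT replicate 1, and 1 without any one of the other 6 libraries and in the fit to the 8 alone. The lower WRKY genes numbered 14 without uap1-2 replicate 3, 6 without WT replicate 4 and 4 without WT replicate 1, but 1 without WT replicate 3, and 0 without uap1-2 replicate 1 or 4 or WT replicate 2 and in the fit to the 8 alone. The NAC median was -0.05 without WT replicate 3, and the WRKY median ran from -0.40 without uap1-2 replicate 3 to -0.13 without WT replicate 3. Besides DREB3, ERF038 (AT2G35700) was the factor of its family whose groups did not overlap, with 0.773, 0.888, 0.999 and 0.785 CPM in uap1-2, against 1.86, 2.68, 1.02 and 1.2 CPM in WT. Of 24 SAUR genes 1 was lower (median -0.25, from -0.45 without WT replicate 3 to 0.02 without WT replicate 2), of 29 XTH cell wall genes 2 were lower and 1 higher (XTH19, of smallest p, at 3.46 ± 1.28 CPM in uap1-2 and 6.89 ± 5.08 CPM in WT, SD, n = 4 each), and of 30 aquaporin genes 2 were lower (TIP2-2, of the tonoplast, at -0.88), which became 7 without uap1-2 replicate 3 and 5 without WT replicate 4, but 0 without uap1-2 replicate 1, and 1 without uap1-2 replicate 2 or 4 or WT replicate 3 and in the fit to the 8 alone. The aquaporin median of -0.22 ran from -0.31 without WT replicate 4 to -0.11 without WT replicate 2. The XTH median of -0.24 ran from -0.42 without WT replicate 4 to -0.05 without WT replicate 2, and 0 XTH genes were lower without uap1-2 replicate 4 or WT replicate 3. Mitochondria-encoded genes had a median of -0.07 over 22 members (0.04 with library totals, and from -0.28 without WT replicate 3 to 0.01 without WT replicate 2), with RRN5 the member of smallest p at 0.215 ± 0.169 CPM in uap1-2 and 0.0628 ± 0.0983 CPM in WT (SD, n = 4 each).

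The 9 reference genes all had estimates below 0 (54.2% of all genes), from -0.46 to -0.06, and 0 had an unadjusted p under 0.05. Lower at such a p was 1 with library totals, with quality weights, and without uap1-2 replicate 2 or 3 or WT replicate 3. Their median of -0.13 was -0.03 with library totals or without WT replicate 1, and -0.22 without WT replicate 4. UBQ10, a polyubiquitin gene, had 875, 965, 1620 and 813 CPM in uap1-2, against 1920, 1590, 1170 and 1200 CPM in WT, at -0.46 (SE 0.25). Of 13 root markers 1 was higher at an unadjusted p under 0.05 (1.89% of all genes), WOX5 of the root stem cell niche at 0.72 (SE 0.32). The root median was -0.19, from -0.375 without uap1-2 replicate 1 to -0.10 without uap1-2 replicate 3. Higher root markers numbered 0 without uap1-2 replicate 1 or 2 or WT replicate 1 or 4, and in the fit to the 8 libraries alone. Lower at such a p were 2 without uap1-2 replicate 3 or WT replicate 4, and 1 without WT replicate 1. Of 7 floral markers tested 0 had such a p, and the smallest was that of PI at 0.76 (SE 0.41). Of 3 seed markers tested OLEO1, of the oil body coat, had 0 CPM in every uap1-2 library and 0.103, 0, 0 and 0.0444 CPM in WT.

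In the cold, 0 genes were called between uap1-2 and WT by edgeR (0%), 1014 had an unadjusted p under 0.05 (4.73%), and DESeq2 called 0. The uap1-2 difference itself, cold against unstressed, was called for 0 genes by edgeR (0%), with 371 at an unadjusted p under 0.05 (1.73%) and 0 by DESeq2. The median of the COR list was -0.07 in the cold and -0.52 unstressed, with 10 of 18 below 0 in the cold, where 47.7% of all genes were below 0 and 52.3% above. The ABA list stood at 0.05 and the ribosomal protein list at 0.05 in the cold, against -0.41 and 0.23 unstressed. Some other list medians crossed 0. SR genes stood at -0.08 in the cold and 0.03 unstressed, spliceosome genes at -0.04 and 0.07, and sulphur genes at 0.32 and -0.31. Flavonoid, circadian and iron genes crossed 0 too, at -0.11, -0.06 and -0.04 in the cold against 0.09, 0.01 and 0.08 unstressed. The medians of the lists named next stayed on the same side of 0. The CBF list stood at -0.32 in the cold (13 of 13 below 0) and -0.30 unstressed. Nitrate genes stood at -0.39 in the cold and -0.23 unstressed, and phosphate genes at -0.48 and -0.91. Cell cycle genes stood at 0.23 in the cold and 0.41 unstressed, and floral markers at 0.45 and 0.345. None of the interactions of a named gene passed the adjustment, so a difference between conditions was not shown for any of them.

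The medians of uap1-2 against WT, unstressed, were -0.52 for COR genes, -0.41 for ABA genes, -0.79 for heat shock genes, 0.62 for chloroplast-encoded genes and 0.23 for nuclear RPL and RPS genes. Those of unstressed uap1-1 against the same WT libraries, in the same order, were -0.49, -0.37, -0.56, 0.48 and 0.13. Other lists had medians on opposite sides of 0 in the 2 lines, given here for uap1-2 and then uap1-1. Root markers stood at -0.19 and 0.51, WRKY genes at -0.24 and 0.11, and XTH genes at -0.24 and 0.26. Sulphur genes stood at -0.31 and 0.22, floral markers at 0.345 and -0.15, SR genes at 0.03 and -0.10, and spliceosome genes at 0.07 and -0.07. Because both lines were set against one WT group, a WT library that stood apart would move both sets of values.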

How the data were processed

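Poly(A) RNA of whole seedlings was sequenced as paired reads. The deposited table gives, for 32833 genes and each library, whole-number read counts that were not normalized and FPKM values. The deposited FPKM equalled count over exonic length and library total to within 0.005 and were not used further. Per the submitters' processing notes, tools included cutadapt 1.9.1, HISAT2 2.2.1, HTSeq 0.6.1 and DESeq2 1.26.0, with build TAIR10; their roles and the strand setting are not given here. Without strand, overlapping genes on opposite strands cannot be told apart.

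Genes with enough counts (filterByExpr, minimum count 10, minimum total 15) numbered 21428. With TMM scaling, edgeR 4.0.16 in R 4.3.3 (glmQLFit, glmQLFTest) fitted 1 mean to each of 6 groups over the 24 libraries, with Benjamini-Hochberg adjustment over all genes and calls at 0.05. SE is the log2 fold change over the square root of F, and 95% intervals use 22.7 degrees of freedom. CPM are reads per 1000000 counted after TMM scaling. DESeq2 1.42.0, other scalings, no filter, robust estimation, a replicate block, the compared groups alone and leaving out each library were tried; an averaged contrast, limma voom (3.58.1), exact permutation tests in the cold and list counts under each alternative were added after seeing the data. The code was tested on simulated data. Replicates are labelled independent biological replicates, and every pair differed by more than sampling noise (chi-square per degree of freedom of 14.1 to 152).

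The members, the 26 lists by locus (423 entries, 409 tested) and the 11 by name pattern were chosen with earlier results of these data known. The text names, per list, called members or, where none is called, the member of smallest p, and genes called in a compared contrast. The 12 genes of smallest p and further list members were added after their values were seen. Of 32548 nuclear genes in the table, 32532 had the same chromosome, start and end in the TAIR10.1 reference, from which sequences were read.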

Additional observations from a re-analysis of the deposited data

Results flagged for a closer look

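Of 111 groups of 4 libraries tested for one library far from the other 3 (Dixon's ratio, 95% critical value), 9 were picked out, or 8.1%, where chance gives about 1 in 20. In uap1-2, replicate 3 was high for 3 genes: AT3G06955 at 2.71 CPM, with the others at 1.13 to 1.28, NAC019 at 9.24 CPM, with the others at 3.56 to 4.48, and FER1 at 387 CPM, with the others at 106 to 136. Replicate 1 of uap1-2 was high for LSM8 at 27.5 CPM, with the others at 19 to 20.4, and replicate 2 was low for the chloroplast gene RPS15 at 0.178 CPM, with the others at 0.742 to 0.832. In WT, replicate 4 was high for NDHH at 0.665 CPM (others 0.0852 to 0.176) and low for NDB2 at 22.4 CPM (others 31.6 to 32.2). Replicate 3 of WT was low for LSM8 at 12.5 CPM (others 17.9 to 18.6), and replicate 2 was high for WRKY55 at 1.23 CPM (others 0.31 to 0.362).

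The effects of the 2 insertion lines differed for 2 genes by edgeR's test of uap1-2 against uap1-1. UGT78D4 differed by -1.81 (adjusted p = 0.000157) and HAI1 by 2.53 (adjusted p = 0.0441), both on the log2 scale, with all 4 uap1-2 libraries on one side of all 4 uap1-1 libraries in each gene.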

How the results depend on the processing

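The count of 0 genes in unstressed uap1-2 against WT held with RLE scaling, library totals, no filter, robust estimation, the replicate block, the 8 libraries alone (566 at an unadjusted p under 0.05) and the averaged contrast. DESeq2 called 13 (DREB3, GATL2, NDHH, AT1G80130, AT3G06955, SAUR71, GATA22, GAT1, PSAA, TRNF, AT2G01010, NAC019 and the chloroplast gene TRNG.1), and voom with quality weights called 1, AT2G01010 (adjusted p = 0.0277). Leaving out one library gave 0 to 1 calls, the 1 being CCX1 without uap1-2 replicate 3. The cause was not tested. Counts in the cold and of the difference between conditions were 0 throughout, with one library left out too (0 to 0). For uap1-1 against WT the 1 call became 31 by DESeq2, 4 with library totals and 1 to 2 with one library left out. For uap1-2 against uap1-1 the 2 calls became 23 by DESeq2, 1 with library totals, 1 with the replicate block, 1 in the groups alone and 1 to 2 with one library left out. Same-numbered uap1-2 and WT libraries correlated in their deviations at 0.24, 0.12, -0.046 and 0.46. The WT library that matched best bore the same number for uap1-2 replicates 1, 2 and 4, and was WT replicate 2 for uap1-2 replicate 3. Shared structure by replicate number is therefore possible. The main fit took no pairs, and the replicate block was tried as an alternative. The block gave 0 calls and 1165 genes at an unadjusted p under 0.05. A set of 48 genes was followed in unstressed uap1-2 against WT: those of smallest p, overall or per list, and those called in a compared contrast. Of these 0 were called, so no call could be lost. Of 764 values under alternatives 751 stayed short of the threshold, 13 passed it and 0 changed sign. The 48 were picked mostly by small p in these same libraries, so the kept signs are a description. Other genes named in the text were not followed, and some list medians did change sign. The calls of HAI1 and UGT78D4 between the lines were lost under the alternatives given beside them in the report. Depth limits genes of few reads, whose intervals are widest.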
